A study of Mus musculus with 12 samples.

Results

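The BMP and TGF-beta ligands described here are 10 secreted signalling proteins, encoded by Bmp2, Bmp4, Bmp5, Bmp6, Bmp7, Bmp10, Gdf15, Tgfb1, Tgfb2 and Tgfb3. They were chosen by name, as every non-control probe whose accession maps to one of these genes. This gave 12 of the 55681 probes on the array and 10 of the 20660 genes that could be named, and all 10 genes entered the test. Heart apex RNA of male C57BL/6J mice aged 15 weeks was hybridised to 12 Agilent arrays with a single dye, which gives 3 arrays for each of 4 knock-in lines. Every line carried 1 altered allele of Nkx2-5, the gene of a cardiac homeobox transcription factor, over a + allele. The control/+ line was itself a knock-in that kept isoleucine at position 183 of the protein, so it is not an unmanipulated wild type. The I183M/+ and I183P/+ lines have methionine or proline there, and the delta/+ line has a deletion of the gene on that allele. Whether each replicate is a different animal is not given in the labels, and p-values therefore speak only of the spread among these arrays. In tissue RNA, fewer cells of a type and less RNA per cell cannot be told apart.

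Ligands of this family are dimers that bring together type I and type II receptor kinases on the cell surface, and the receptors then phosphorylate SMAD proteins that enter the nucleus. BMPs act mainly through SMAD1, SMAD5 and SMAD9, and the TGF-betas mainly through SMAD2 and SMAD3. In the heart, BMP signals take part in specifying heart muscle and shaping the valve cushions, while TGF-betas are best known in the adult heart for driving fibroblasts to deposit matrix. GDF15 is a distant family member, released by stressed tissue, that acts through a receptor in the hindbrain.

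The first control array, control replicate 1, was unlike the rest, and the difference from control of each ligand measured on every array is given with and without it. On that array 99.1% of spots were well above background, against 51.2% to 75.2% on the other 11, and its median spot intensity was 603 against 34.8 to 92.3. Its best Pearson correlation with any other array was 0.927, whereas the other arrays each reached 0.991 to 0.997. I183M replicate 1 and delta replicate 2 were next, with 72.8% and 75.2% of spots well above background, and were each other's closest partner. Nkx2-5 itself, on the log2 scale relative to each array's 75th percentile, read 3.11, 4.45 and 4.56 on the control arrays and 3.77, 3.79 and 3.93 on the delta arrays. It read 4.51 to 4.73 on the 6 arrays of the substituted lines. After normexp and quantile normalization its levels were 13.52 to 13.60 in control, 13.57 to 13.83 in the substituted lines and 12.78 to 12.90 in delta, without overlap between delta and the others. Where its probe lies relative to the deletion is not known here. The mean level of 8 ventricular muscle markers was 6.88 on control replicate 1 and 7.95 to 8.23 on the other 11 arrays, with all 8 well above background. On normexp and quantile values that distance was gone, at 17.33 on control replicate 1 and 17.22 to 17.30 on the others.

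The window before the transcription start is shown for Tgfb2, whose levels separated the control line from the other lines, and for Gdf15, whose levels were the most spread within a line among the ligands measured on every array. RefSeq promoter windows on GRCm38.p6 were at hand for 7 of the 10 ligands, Bmp4, Bmp5, Bmp6, Bmp10, Gdf15, Tgfb1 and Tgfb2. Each printed sequence is the 250 bases before the start, 5′ to 3′ on the strand of the gene. The Tgfb2 window is chr1:186705990-186706239 on the minus strand, and the Gdf15 window, 1 of 2 listed for that gene, is chr8:70632096-70632345 on the minus strand. Capitals mark matches to the TATA box TATAAA and to the E-box CACGTG.
Tgfb2: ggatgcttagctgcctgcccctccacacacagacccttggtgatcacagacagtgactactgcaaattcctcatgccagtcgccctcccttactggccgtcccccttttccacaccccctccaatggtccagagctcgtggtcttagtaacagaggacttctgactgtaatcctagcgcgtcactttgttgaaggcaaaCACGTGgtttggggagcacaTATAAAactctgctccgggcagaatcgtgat
Gdf15: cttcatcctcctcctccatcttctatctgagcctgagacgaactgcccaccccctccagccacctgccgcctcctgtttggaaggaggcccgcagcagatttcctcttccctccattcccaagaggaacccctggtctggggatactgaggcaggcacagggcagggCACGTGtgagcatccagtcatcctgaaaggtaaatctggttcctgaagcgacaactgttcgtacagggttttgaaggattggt
In the Tgfb2 window TATAAA begins 31 bases before the start and CACGTG 51 bases before it, and in the Gdf15 window CACGTG begins 83 bases before the start. On either strand, TATAAA was found in 12.4% and CACGTG in 6.02% of all 32851 windows of this length. The other Gdf15 window held none of the motifs searched. CACGTG was also found before Bmp4 and Bmp6. The GC box GGGCGG, found in 32.7% of all windows, was present 5 times before Tgfb1 and once each before Bmp4 and Bmp6. The element TNAAGTG, which NKX2-5 is known to bind, was found in 10.1% of all windows and in none of those of the 7 ligands, counting both strands. No match overlapped another. A match is a run of letters, not a site, and a missing match says only that these letters are not in that window.

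No ligand passed the threshold in any of the 6 comparisons (limma, Benjamini-Hochberg adjusted p under 0.05 over 29774 genes or unnamed features). The background share past the threshold was 0% for I183M, 0.00336% for I183P and 0.0739% for delta against control, and 0% for each of the 3 direct comparisons between mutant lines. The smallest adjusted p of a ligand was 0.876 in I183M, 0.564 in I183P and 0.307 in delta, each against control, and 1 between the mutant lines. At an unadjusted limma p under 0.05, the count was 1 of 10 ligands in I183M, 4 of 10 in I183P and 2 of 10 in delta, against 1.48%, 5.20% and 7.44% of all features. Without control replicate 1 that count was 0, 3 and 2 of 10. The background then rose to 1827, 2453 and 4462 of 29774 features, from 440, 1547 and 2215 with all arrays. Over all alternatives the ligand count ran from 0 to 3 in I183M, 0 to 6 in I183P and 0 to 4 in delta. The highest counts came without control replicate 3, where 1999, 4712 and 4699 of 29774 features had such a p. Between the mutant lines, with all arrays, the count was 0 of 10 in each comparison, against 1.27%, 3.51% and 2.79%. The count of ligands past the adjusted threshold was also 0 in all 117 combinations of a comparison with an alternative setting. The paragraphs below describe which members were measurable and which had arrays that did not overlap between lines, without a call for any of them.

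The 8 ligands Bmp2, Bmp4, Bmp6, Bmp7, Gdf15, Tgfb1, Tgfb2 and Tgfb3 were well above background on all 12 arrays through at least 1 probe. Bmp5 and Bmp10 were not. Groups that did not overlap, meaning that all 3 arrays of one line lay above or below all 3 of the other, were counted for each comparison. Against control this held for 3 of 10 ligands in I183M, where 3.95% of all features did so. In I183P it held for 5 of 10, against 12.8% of all features. In delta it held for 3 of 10, against 13.9% of all features. Tgfb2 and Tgfb3 were on the higher side and Bmp7 on the lower side in all 3, with Bmp4 higher and Gdf15 lower in I183P as well. The 3 comparisons share the same control arrays and are not independent of each other. Without control replicate 1 the counts were 5, 6 and 5 of 10, while the background rose to 32.3%, 30.6% and 34.3%. With all arrays the ligands' share lay above the background in each comparison, and without control replicate 1 the distance was smaller. The members were chosen with earlier results of these data known, so this distance is not evidence about the ligands. The background also holds dim features, while 8 of the ligands were well above background on every array. Of the 8 ligands measured on every array, 6 had a log2 difference above 0 in each mutant line, with medians of 0.14, 0.30 and 0.39 in I183M, I183P and delta, beside 0.11, -0.03 and 0.05 for all features. Features well above background on all 12 arrays, a set more like these ligands, had medians of 0.27, 0.27 and 0.29. Without control replicate 1, Bmp6, Bmp7, Gdf15 and Tgfb1 lay below 0 in each mutant line and the others above.

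**Figure D1:**
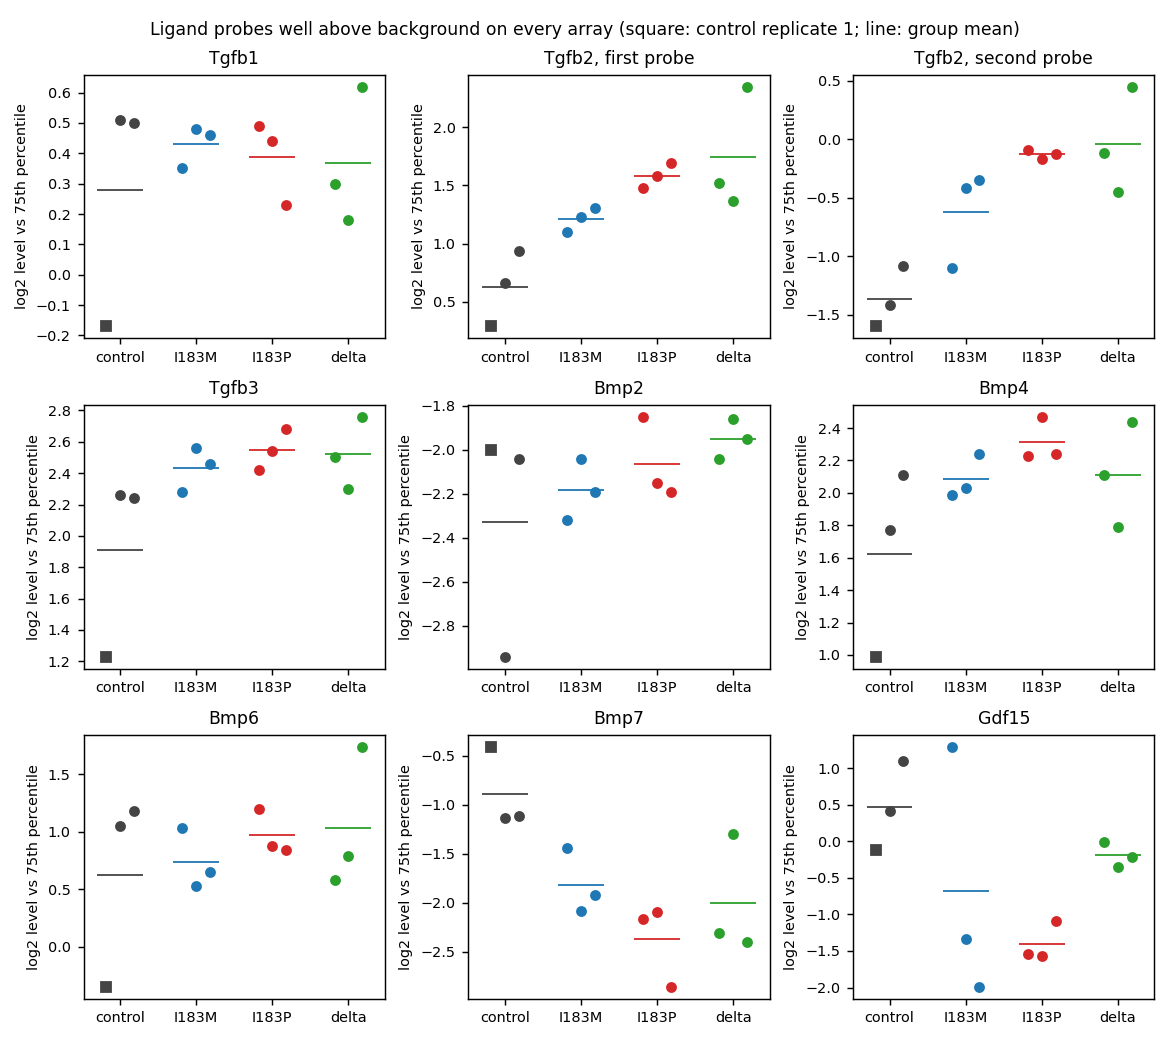
Log2 levels relative to each array's 75th percentile (vertical axis, a separate range in each panel) of the 9 ligand probes that were well above background on every array, by line (horizontal axis). Each point is 1 array, in replicate order from left to right, the square is control replicate 1 and the line is the mean of the 3 arrays. Both Tgfb2 panels place the control arrays lowest, except that I183M replicate 1 lies level with control replicate 3 on the second probe, and the Bmp7 panel places the control arrays highest.

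Tgfb2, the TGF-beta isoform known for its part in cushion and valve formation in mouse embryos, had the smallest p of the ligands in delta. Its log2 level was 0.29, 0.66 and 0.94 on the control arrays and 1.10, 1.23 and 1.31 on the I183M arrays. It was 1.48, 1.58 and 1.69 on the I183P arrays and 1.52, 1.37 and 2.35 on the delta arrays. Every control array lay below every array of the other 3 lines, and every I183M array lay below every I183P and delta array, while I183P and delta overlapped. The mean level was 0.63 ± 0.32 (SD, n = 3) in control, 1.21 ± 0.11 in I183M, 1.58 ± 0.10 in I183P and 1.75 ± 0.53 in the delta line. The log2 difference from control was 0.58 (SE 0.279) in I183M, 0.95 in I183P and 1.12 in delta. For delta this is a ratio of 2.17, with a 95% interval of the log2 difference from 0.49 to 1.74. None passed the threshold, with limma adjusted p of 0.876, 0.564 and 0.307. Without control replicate 1 the differences were 0.41, 0.79 and 0.95, with limma adjusted p of 0.727, 0.467 and 0.162.

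A second Tgfb2 probe, to the same transcript, was dimmer but followed the first, with a Pearson correlation of 0.96 over the 12 arrays and 0.94 over the 11 without control replicate 1. Its log2 level was -1.60, -1.42 and -1.08 on the control arrays and -1.10, -0.42 and -0.35 on the I183M arrays. It was -0.09, -0.17 and -0.13 on the I183P arrays and -0.12, -0.45 and 0.45 on the delta arrays. I183M replicate 1 reached into the control range on this probe, and the I183P and delta arrays did not. The log2 difference from control was 0.75 in I183M, 1.24 in I183P and 1.33 in delta, with limma adjusted p over 41563 probes of 0.952, 0.571 and 0.287. Between mutant lines the first probe differed by 0.37 for I183P over I183M, with a 95% interval from -0.25 to 1.00. The delta line lay 0.53 above I183M, with an interval from -0.09 to 1.16, and 0.16 above I183P, with an interval from -0.46 to 0.79.

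Tgfb3, the isoform known for its part in palate closure in mice, read 1.23, 2.26 and 2.24 (log2 level) on the control arrays and 2.28, 2.56 and 2.46 on the I183M arrays. The I183P arrays read 2.42, 2.54 and 2.68 and the delta arrays 2.50, 2.30 and 2.76. All 9 arrays of the mutant lines lay above all 3 control arrays, but the nearest were only 0.02 apart as printed, and control replicate 1 set much of the distance. The log2 difference from control was 0.53 in I183M, 0.64 in I183P and 0.61 in delta (SE 0.288), and without control replicate 1 it was 0.19, 0.30 and 0.27. Limma adjusted p without that array was 0.765, 0.716 and 0.464.

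Tgfb1, the isoform most tied to fibrosis, overlapped with control in each mutant line. Its log2 level was -0.17, 0.51 and 0.50 on the control arrays and 0.35, 0.48 and 0.46 on the I183M arrays. It was 0.49, 0.44 and 0.23 on the I183P arrays and 0.30, 0.18 and 0.62 on the delta arrays. Apart from control replicate 1, all arrays lay between 0.18 and 0.62. The log2 differences from control were 0.15, 0.11 and 0.09 in I183M, I183P and delta, with 95% intervals from -0.37 to 0.66, from -0.41 to 0.62 and from -0.43 to 0.60. Without control replicate 1 their sign turned, to -0.07, -0.12 and -0.14, and the I183M and I183P arrays then all lay just below the other 2 control arrays.

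Bmp7, known for opposing TGF-beta in mouse kidney fibrosis, was the 1 ligand measured on every array for which all control arrays lay above every other array. Its log2 level was -0.41, -1.14 and -1.12 on the control arrays and -1.44, -2.09 and -1.92 on the I183M arrays. It was -2.17, -2.10 and -2.86 on the I183P arrays and -2.31, -1.30 and -2.40 on the delta arrays. No mutant array reached the control range, and the nearest, delta replicate 2 and I183M replicate 1, were the arrays next to control replicate 1 in their share of spots above background. The mean level was -0.89 ± 0.42 (SD, n = 3) in control, -1.81 ± 0.33 in I183M, -2.38 ± 0.42 in I183P and -2.00 ± 0.61 in the delta line. The log2 difference from control was -0.92 in I183M, -1.49 in I183P and -1.11 in delta (SE 0.372), ratios of 0.527, 0.357 and 0.463. The 95% interval of the I183P difference ran from -2.32 to -0.65. Limma adjusted p was 0.876, 0.564 and 0.470. The Bmp7 differences without control replicate 1 were -0.68, -1.24 and -0.87, with limma adjusted p of 0.727, 0.398 and 0.328.

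After normexp background correction and quantile normalization, which give every array the same distribution of values, the Bmp7 control arrays drew together. On that log2 scale they read 8.63, 8.61 and 8.66, against 8.27, 7.92 and 8.11 in I183M, 7.97, 7.99 and 7.53 in I183P, and 7.89, 8.32 and 7.70 in delta. The line order was the same and the groups still did not overlap with control, but the differences were smaller, at -0.53, -0.80 and -0.66. Limma adjusted p on these values was 0.819, 0.352 and 0.225. The same values placed Tgfb2 at 9.72, 9.83 and 10.06 in control and at 10.61, 10.51 and 11.36 in delta, a difference of 0.96 with a limma adjusted p of 0.142. The Tgfb2 differences in I183M and I183P were 0.44 and 0.77. For Tgfb3 they were 0.20, 0.31 and 0.23 in I183M, I183P and delta, of which the largest had a limma adjusted p of 0.491.

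Gdf15, the stress-released ligand, varied more within I183M than between most lines. Its log2 level was -0.12, 0.41 and 1.10 on the control arrays and 1.29, -1.34 and -1.99 on the I183M arrays. It was -1.54, -1.57 and -1.09 on the I183P arrays and -0.01, -0.35 and -0.22 on the delta arrays. The I183P arrays lay below all control and all delta arrays, delta overlapped with control, and I183M replicate 1 lay above every other array while its 2 companions lay below every other array except those of I183P. The log2 difference from control was -1.14 in I183M, -1.86 in I183P and -0.66 in delta (SE 0.709), with 95% intervals from -2.73 to 0.45, from -3.45 to -0.27 and from -2.24 to 0.93. None passed the limma threshold. The Gdf15 differences without control replicate 1 were -1.43, -2.15 and -0.95, and the delta arrays then all lay below the other 2 control arrays. I183M replicate 1 set much of the I183M value, which was -2.13 without it (limma adjusted p 0.674) and -2.42 without it and control replicate 1 (limma adjusted p 0.134).

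The place of an array on its slide moved with Gdf15. The 3 control arrays and I183M replicate 1 lay in column 1 of slide 1, I183M replicates 2 and 3 and I183P replicates 1 and 2 in column 2 of slide 1, and I183P replicate 3 and the delta arrays in column 1 of slide 2. The 4 arrays of the first set read -0.12 to 1.29 and the 4 of the second -1.99 to -1.34, while the third set read -1.09 to -0.01. With slide and column as a block the Gdf15 differences from control turned to 0.83, 0.94 and 1.83 in I183M, I183P and delta, with limma adjusted p of 1 in each. Under this block the control arrays meet the mutant lines through I183M replicate 1 alone, and delta meets the other lines through I183P replicate 3 alone, so each of these values rests on single arrays. Under the same block Tgfb2 differed by 0.47, 0.73 and 0.78, and Bmp7 by -0.55, -0.68 and 0.17. With slide alone as a block, Tgfb2 differed by 0.58, 0.90 and 0.95, Bmp7 by -0.92, -1.24 and -0.39, and Gdf15 by -1.14, -2.02 and -1.12. Within slide 1, which holds no delta array, the differences in I183M and I183P were 0.58 and 0.90 for Tgfb2, -0.92 and -1.24 for Bmp7, and -1.14 and -2.02 for Gdf15. The part of slide position in these results was not tested.

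**Figure D2:**
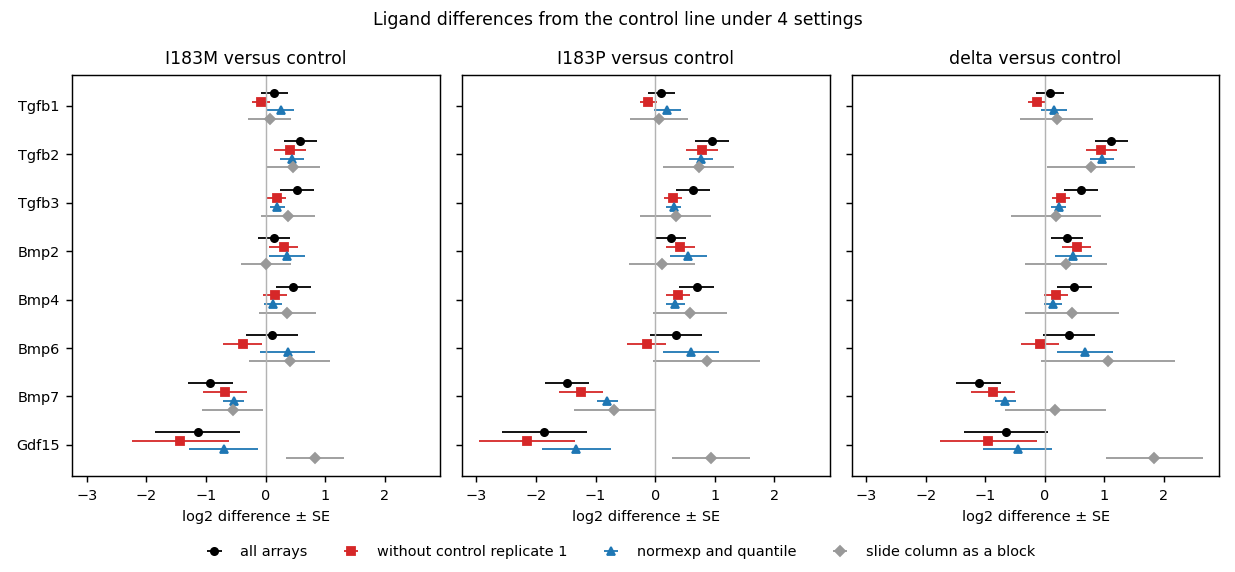
Log2 difference from the control line (horizontal axis, point with SE) of the 8 ligands measured on every array (vertical axis), in 1 panel for each mutant line. Black circles use all arrays, red squares leave out control replicate 1, blue triangles use normexp and quantile normalized values, and grey diamonds take the slide column as a block. The Tgfb2 points lie right of 0 in all 4 settings, the Gdf15 points lie right of 0 under the slide column block, where control is linked to the mutant lines by I183M replicate 1 alone, and Tgfb1 and Bmp6 cross to the left without control replicate 1.

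Bmp4, a ligand needed for the outflow tract and cushions of the mouse embryo, read 0.99, 1.77 and 2.11 (log2 level) on the control arrays and 1.99, 2.03 and 2.24 on the I183M arrays. The I183P arrays read 2.23, 2.47 and 2.24 and the delta arrays 2.11, 1.79 and 2.44. Only the I183P arrays all lay above the control arrays. The difference of I183P from control was 0.69 (SE 0.294, limma adjusted p 0.564), and 0.38 without control replicate 1. In I183M and delta the Bmp4 difference was 0.47 and 0.49, and 0.15 and 0.18 without that array. A second Bmp4 probe was well above background on control replicate 1 alone and was not tested.

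Bmp2, which induces the valve-forming change of endocardial cells, was measured at a log2 level of -2.00, -2.94 and -2.04 on the control arrays. The 9 arrays of the mutant lines lay between -2.32 and -1.85, inside or just above the control range. The differences from control were 0.14, 0.26 and 0.37 in I183M, I183P and delta, with 95% intervals from -0.45 to 0.73, from -0.33 to 0.85 and from -0.22 to 0.96. Control replicate 2, the lowest of all arrays, set most of this, and without it the I183M and I183P differences were -0.17 and -0.05. The Bmp2 differences were 0.30, 0.42 and 0.54 without control replicate 1.

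Bmp6, known as the signal by which the liver senses iron, read -0.35, 1.05 and 1.18 (log2 level) on the control arrays and 0.53 to 1.74 on the other 9. Each mutant line overlapped with control, I183M only through control replicate 1. The differences from control were 0.11, 0.35 and 0.41 (SE 0.436) and turned to -0.38, -0.14 and -0.08 without control replicate 1. The 95% interval of the delta difference ran from -0.57 to 1.38.

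Bmp10 is a ligand made chiefly by right atrial muscle in the adult heart, and in mouse embryos lacking ventricular Nkx2-5 it is known to be raised. Here it was well above background on 3 of 12 arrays, control replicate 1, I183M replicate 1 and delta replicate 2, which are the 3 arrays with the largest shares of spots above background. Its processed intensity was 815, 15.9 and 4.98 on the control arrays, 58.7, 12.6 and 10.3 on the I183M arrays, 6.02, 6.11 and 13.6 on the I183P arrays, and 13.8, 55.3 and 13.2 on the delta arrays. It passed the filter on dim probes only through those 3 arrays, so its fitted differences are not given here, although it is counted among the 10 ligands tested. Taking the lowest signal well above background as a floor for I183P, the control mean was 1.18-fold above that floor, with 1 of 3 control arrays measured. The other control values, below detection, were kept as read. That array is control replicate 1, and without it the control mean lies below the floor and gives no fold.

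Markers of atrial muscle varied between arrays to unlike degrees. Since Bmp10 was below detection on most arrays, whether they followed it cannot be read. Sarcolipin, Sln, ranged from -3.24 on control replicate 2 to 5.42 on delta replicate 1 (log2 level), and the atrial light chain Myl7 from -5.06 on I183P replicate 3 to 4.13 on delta replicate 1. Other markers varied less, Kcnj3 from -1.28 to -0.32 and Stard10 from -0.12 to 1.28. Stard10 was highest on control replicate 2, where Sln was lowest. Bmp10 was not well above background on delta replicate 1, where Sln and Myl7 were highest. On each array 7 or 8 of the 8 atrial markers fixed for this purpose, Bmp10 among them, were well above background. Their mean level ranged from -0.65 to 1.51 in control, 0.55 to 1.57 in I183M, -0.91 to 1.65 in I183P and 0.76 to 2.49 in delta. Their part in the ligand results was not tested.

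Bmp5, a BMP of the same subfamily as Bmp6 and Bmp7, was well above background on 5 of 12 arrays, control replicates 1 and 2, I183M replicate 1 and delta replicates 2 and 3. Its processed intensity was 1690, 35.4 and 13.8 on the control arrays and 140, 22.2 and 31.2 on the I183M arrays. It was 16.0, 9.68 and 13.2 on the I183P arrays and 12.3, 114 and 61.9 on the delta arrays. The single value of control replicate 1 exceeded the next, that of I183M replicate 1, by over 10 times. These intensities are not scaled, and the 75th percentile intensity of these 2 arrays was 1450 and 613.6. Relative to that percentile the log2 levels were 0.22 and -2.13, a smaller distance. No I183P array was well above background. Against the same kind of floor, the bound put I183P 2.75-fold lower than control, 1.95-fold lower than I183M and 1.83-fold lower than delta, with 2, 1 and 2 arrays of the brighter line measured. Values of the brighter line that were below detection were kept as read, so these bounds are approximate. The bound against control rests on control replicate 1, without which the control mean lies below the floor and gives no fold. The other bounds rest on I183M replicate 1, without which no I183M array was measured, and on delta replicate 2, without which the bound was 1.12-fold. The Bmp5 fit, like that of Bmp10, compares values that mostly lie below detection and is not given.

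**Figure D3:**
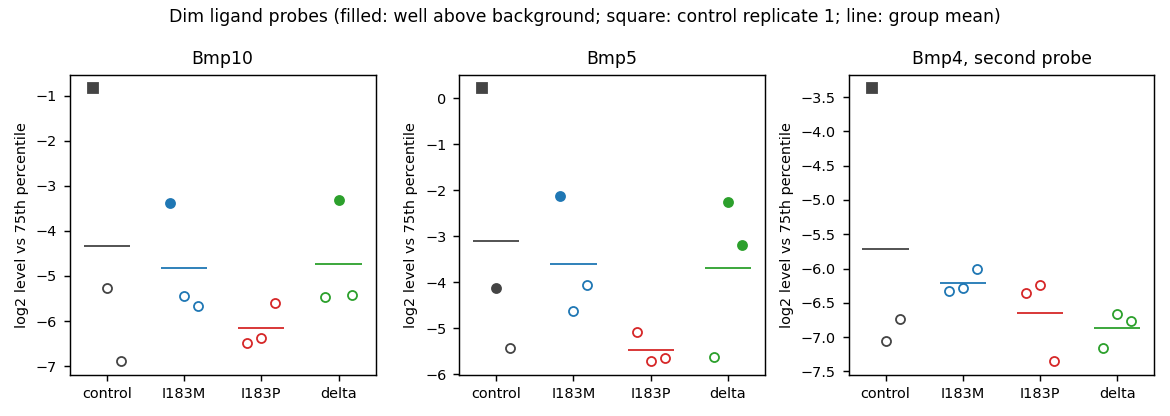
Log2 levels relative to each array's 75th percentile (vertical axis, a separate range in each panel) of the 3 ligand probes that were not measured on every array, by line (horizontal axis). Filled points are arrays on which the probe was well above background, open points are not, the square is control replicate 1 and the line is the mean of the 3 arrays. No I183P point is filled, and control replicate 1 is the highest array in each panel.

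Between mutant lines no ligand passed the threshold. The I183P arrays did not overlap with those of I183M for 3 of 10 ligands, Tgfb2 on the higher side and Bmp5 and Bmp7 on the lower, where 24.5% of all features did so. For Bmp5 this ranks values of which only I183M replicate 1 was well above background. The delta arrays did not overlap with those of I183M for 2 of 10, Bmp2 and Tgfb2, both higher, where 17.5% of all features did so. The nearest Bmp2 arrays, delta replicate 1 and I183M replicate 2, both read -2.04 as printed, and the second Tgfb2 probe overlapped. On normexp and quantile values only Tgfb2 stayed apart in both comparisons with I183M. The delta arrays did not overlap with those of I183P for 2 of 10, Bmp10 and Gdf15, both higher, where 19.7% did so. For Bmp10 only delta replicate 2 was well above background, so that separation is a rank among values below detection. These counts are near the background share. The Bmp7 difference was -0.56 for I183P over I183M, with a 95% interval from -1.39 to 0.27, and the Gdf15 difference was 1.20 for delta over I183P, with an interval from -0.38 to 2.79.

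Across the 11 arrays other than control replicate 1, the levels of the ligands varied together to different degrees. These correlations describe arrays that share a line and a slide, and carry no test. The highest Pearson r between 2 ligands was 0.86, for Tgfb2 and Tgfb3, and the lowest was -0.91, for Bmp7 and Tgfb3. Bmp7 and Tgfb2 gave -0.76, Bmp4 gave 0.73 with Tgfb2 and 0.72 with Tgfb3, and Tgfb1 gave 0.06 with Tgfb2. Of 17237 symbols, those most like Tgfb2 over these 11 arrays were Gbp2 (r of 0.965) and Chst7 (0.962). Those most like Tgfb3 were Clec2e (0.931) and Trim12a (0.929), those most like Bmp7 were Zxdc (0.923) and Nrg2 (0.914), and Itgb3 (0.957) was among those most like Gdf15. For Tgfb1 they were Man2b1 (0.985) and Bag6 (0.953), for Bmp6 Klk1b5 (0.973) and Ptpn11 (0.957), for Bmp4 Lmo4 (0.885) and Olfr1143 (0.878), and for Bmp2 Zrsr1 (0.927) and Cd3d (0.913). They are the highest of very many values over few arrays, and Clec2e, Nrg2 and Cd3d were not well above background on every array.

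The other genes of the pathway were read by role, from 6 lists of 106 genes of which 94 were measured. No gene of any list passed the limma threshold in the 6 comparisons. Among 18 of 23 other ligands measured, Inhba, a subunit of activins, read -1.77, -1.81 and -1.14 (log2 level) on the control arrays and -0.83, -0.64 and -0.16 on the I183P arrays, a difference of 1.03 with a limma adjusted p of 0.564. In I183M the Inhba difference was 0.86. Gdf10 differed by 0.83 in I183M and 0.98 in I183P. In delta the other ligands with the smallest p were Inhbb, at 0.39, and Gdf3, at 0.41. The list medians of the log2 difference were -0.10, -0.51 and -0.04 in I183M, I183P and delta, and 0.39, 0.22 and 0.38 without control replicate 1.

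Of 19 receptors and co-receptors 16 were measured. The type I receptor gene Acvr1 differed from control by 0.63 in I183M and 0.74 in I183P, and by 0.32 and 0.43 without control replicate 1. The co-receptor gene Tgfbr3 differed by 0.60 in I183M, and by 0.23 without that array. Amhr2, the type II receptor of anti-Müllerian hormone, read -2.28, -2.17 and -1.90 (log2 level) on the control arrays and -3.00, -2.72 and -3.39 on the delta arrays, a difference of -0.92 with a limma adjusted p of 0.380. On normexp and quantile values that difference was -0.24. Amhr2 differed by -0.76 in I183P, and the activin type I receptor gene Acvr1b by -0.97 in delta, which on normexp and quantile values were -0.01 and -0.17. The median over the receptors was 0.39, 0.42 and 0.37 in I183M, I183P and delta, and 0.11, 0.18 and 0.10 without control replicate 1.

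All 15 genes of SMAD proteins and their regulators were measured. Smurf1, a ubiquitin ligase that targets SMADs and receptors, read 0.22, 0.01 and -0.42 (log2 level) on the control arrays, -0.84, -0.66 and -0.78 on the I183P arrays and -1.02, -0.62 and -0.64 on the delta arrays. It differed by -0.70 in both lines, without overlap, with a limma adjusted p of 0.564 in each. In I183M the Smurf1 difference was -0.46. The inhibitory SMAD gene Smad6 differed by 0.53 in I183M and 0.61 in I183P, and by 0.30 and 0.37 without control replicate 1. The SMAD corepressor gene Tgif1 differed by 0.41 in delta, and by 0.42 without that array. The median over this list was 0.18, 0.19 and 0.31 in the 3 lines, and 0.00, 0.01 and 0.03 without control replicate 1.

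Of 17 secreted antagonists and modulators 13 were measured. Dcn, which encodes the TGF-beta binding proteoglycan decorin, differed by 0.64 in I183M and 0.65 in delta, and by 0.17 and 0.18 without control replicate 1. Bmper, a BMP-binding modulator, differed by 0.51 in I183M, and by 0.30 without that array. Fstl1 and Fstl3, related to follistatin, differed by 0.71 and -0.80 in I183P, and by 0.30 and -0.38 without that array. The BMP antagonist gene Nog differed by 0.76 in delta, and by 1.17 with a limma adjusted p of 0.0777 without control replicate 1. The median over the antagonists was 0.22, -0.07 and 0.10 in I183M, I183P and delta, and 0.30, 0.07 and 0.18 without that array. All 17 genes of ligand processing, storage and activation were measured. Ltbp2, of the latent TGF-beta binding protein family, differed by 0.41 in I183M and 0.66 in I183P, and by 0.52 and 0.78 without control replicate 1. Lrrc32, which holds latent TGF-beta on the cell surface, differed by 0.58 in I183P and 0.90 in delta. Without control replicate 1 the Lrrc32 differences were 0.20 and 0.52. Furin, the protease that cuts the ligand precursors, differed by 0.55 in delta, and by 0.24 without that array. Mmp9, the other gene the naming rule takes in I183M, was well above background on 4 of 12 arrays, and its difference is not read. The median over the processing and storage list was 0.28, 0.38 and 0.27, and 0.01, 0.06 and -0.12 without control replicate 1.

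All 18 genes known to rise with BMP or TGF-beta signals were measured. Id2, an inhibitor of helix-loop-helix factors, read -0.89, 0.05 and 0.27 (log2 level) on the control arrays and 0.91, 0.71 and 1.23 on the delta arrays. Its log2 difference from control was 0.79 in I183M, 0.84 in I183P and 1.14 in delta, without overlap in each, and limma adjusted p was 0.876, 0.564 and 0.344. Without control replicate 1 the Id2 differences were 0.44, 0.48 and 0.79. Atoh8 differed by -0.87 in I183P. The list's median difference was 0.50, 0.57 and 0.35 in I183M, I183P and delta, where the median of all features was 0.11, -0.03 and 0.05. Over features well above background on all 12 arrays the median was 0.27, 0.27 and 0.29. Without control replicate 1 the list's medians were 0.10, 0.18 and -0.04, beside 0.09, 0.01 and 0.16 for all features.

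With array weights, which give arrays that fit poorly less influence and whose estimation stopped short of full convergence, 9 of the 94 pathway genes passed the limma threshold in I183P against I183M, where 6.34% of all features did, and 2 in delta against I183M, where 1.33% did. No ligand was among them, and no pathway gene passed under any other setting. Among the 9 were Id1 (log2 difference -0.35, adjusted p 0.0402), Id3 (-0.33, adjusted p 0.0219) and the inhibitory SMAD gene Smad7 (-0.50, adjusted p 0.0212), all lower in I183P. These 3 do not stand for the target list. In the main fit of I183P against I183M, 9 of the 18 target genes lay above 0 and 9 below, with a median of 0.02. Id3 read 3.21, 3.29 and 3.29 (log2 level) on the I183M arrays and 2.93, 2.97 and 2.93 on the I183P arrays, without overlap. Also among the 9 that passed were Bmper (-0.64), Gdf5 (-1.44), Gdf7 (-2.99), Gdf11 (-1.09) and Inhbb (0.60), and a further target gene that is not reported here. Gdf7 read -1.92, -3.40 and -0.10 on the I183M arrays, so its difference rests largely on I183M replicate 3. Gdf11 read -5.37, -5.19 and -5.43 on the I183P arrays. Those levels are about those of Bmp5 there, which was not well above background, so the Gdf11 difference involves values near detection. In delta they were Bmper (-0.83) and the inhibin subunit gene Inha (-0.75), both lower than in I183M.

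**Figure D4:**
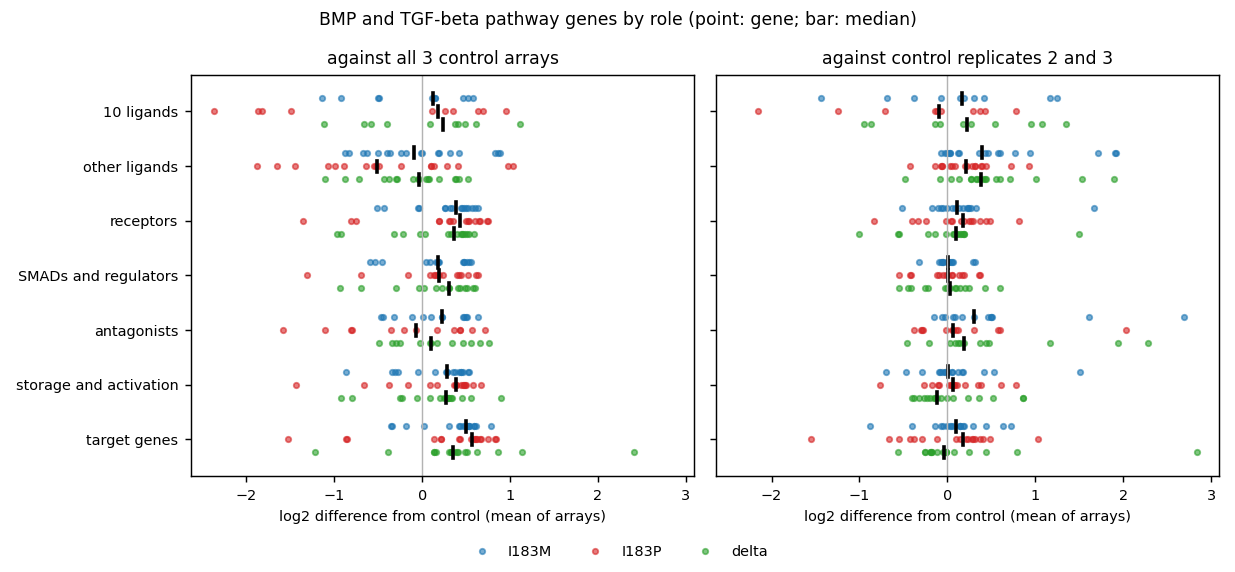
Log2 difference from the control line (horizontal axis, mean of the line's 3 arrays minus mean of the control arrays) of each measured pathway gene, grouped by role (vertical axis), with 1 point for each gene and line and a bar at each median. The left panel uses all 3 control arrays and the right panel control replicates 2 and 3. The medians of the target genes lie at 0.50, 0.57 and 0.35 on the left and at 0.10, 0.18 and -0.04 on the right, for I183M, I183P and delta.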

How the data were processed

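Per the labels, total RNA was labelled with Cy3. Per the file headers, Agilent Feature Extraction 11.0.1.1 (protocol GE1_1100_Jul11, layout on mm9) gave the deposited intensity values: processed, median and local background intensity per spot, not normalized between arrays. Feature Extraction and limma are named, without versions, in the submitters' processing notes. A table of log2 values deposited by the authors, whose normalization is not stated in the sources used here, was used only for comparison, as an alternative setting.

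Here, processed intensity was log2 transformed and the 75th percentile of its array subtracted. Control and outlier spots were left out, spots of a probe averaged, and 96 probes with a missing value dropped. A probe was tested if well above background on at least 3 of 12 arrays (41563 probes). Genes with several tested probes were represented by the one of highest mean. Accessions were named through a RefSeq table of GRCm38.p6, for 27235 probes. All 12 arrays were fitted with limma 3.58.1 in R 4.3.3, with adjusted p under 0.05 as the threshold, and the procedure was tested on simulated data. Those data held large changes and independent noise, without an outlying array or a slide effect, so they do not cover such conditions. Normexp (offset 50) used the median and background intensity, since no mean intensity column was used here. A floor per array, the lowest signal well above background, gives an approximate bound on the fold of a probe unmeasured in a line. Values of the other line were kept as read, also those below detection. The arrays were 3 per line, which limits precision.

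The 10 ligands are named throughout. Each pathway list names its 2 genes with the smallest p against control, and likeness names 2 symbols per ligand. Some values these rules would name are not reported here. The members and lists were chosen with earlier results of these data known. Same-numbered arrays of I183M and control deviated together (Pearson r of 0.79, 0.56 and 0.50 for replicates 1, 2 and 3). Those of I183P and control gave -0.05, -0.32 and 0.20, and those of delta and control -0.81, -0.81 and 0.21. Deviations within a line of 3 arrays depend on each other, so these values are not separate evidence of pairs. The labels give no pairs and the main fit used none. Only the replicate block, 1 of the alternatives, took the numbers as pairs. Alternatives covered the background correction, scaling, filter, array weights, slide, slide column, replicate block and each replicate left out.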

Additional observations from a re-analysis of the deposited data

How the results depend on the processing

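The count of ligands past the threshold stayed 0 under every alternative tried, 117 in all over the 6 comparisons. Of 472 differences from control of the 8 ligands measured on every array, taken over the alternatives, 443 kept their sign, and Bmp4, Tgfb2 and Tgfb3 kept it in each. The differences whose sign turned belonged to Bmp2, Bmp6, Gdf15, Tgfb1 and, in delta, Bmp7. Leaving out 1 array, or control replicate 1 with 1 other, gave ranges that cross 0. In I183M these were -0.17 to 0.37 for Bmp2, -0.53 to 0.39 for Bmp6 and -0.07 to 0.26 for Tgfb1. In I183P they were -0.05 to 0.42 for Bmp2, -0.14 to 0.63 for Bmp6 and -0.12 to 0.22 for Tgfb1. In delta they were -0.08 to 0.69 for Bmp6 and -0.14 to 0.20 for Tgfb1. Array weights took Bmp6 to -0.52, -0.20 and -0.13 and Tgfb1 to -0.04, -0.07 and -0.12 in I183M, I183P and delta. The alternatives that leave out 2 arrays, the Bmp5 bounds without single arrays, the slide column block and the next were chosen after seeing the data. The slide column block took Gdf15 to 0.83, 0.94 and 1.83, and Bmp7 in delta to 0.17, values that rest on single arrays, I183M replicate 1 beside control and I183P replicate 3 beside delta. Normexp and quantile values without control replicate 1 took Bmp2 in I183M to -0.01, Bmp6 to -0.26 and -0.03 in I183M and I183P, and Tgfb1 to -0.05, -0.11 and -0.15. The cause was not tested. The replicate block changed no call. With it Tgfb2 in I183M differed by 0.58 (SE 0.240, limma adjusted p 0.913). Scaling by the median of each array moved the median of all features to 0.338, 0.758 and 0.427 in I183M, I183P and delta, and on that scale Tgfb2 differed by 0.81, 1.74 and 1.5 and Bmp7 by -0.69, -0.70 and -0.73. The depth of signal limits Bmp5, Bmp10 and the second Bmp4 probe, which were below the detection flag on most arrays.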
